A study of Mus musculus with 6 samples.

Results

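The regions described here are the open chromatin peaks at the promoters of predicted Gm genes in mouse definitive endoderm cells with and without the transcription factor OTX2. They were chosen by name and position: in the authors' deposited table of all peaks, the gene assigned to the peak is written Gm followed by digits only, and the location reads promoter within 1 kb of the start. This gave 1611 peaks of 1403 genes, out of 70494 peaks in all. The other peaks placed within 1 kb of a start, 20028 of them, serve as the comparison.

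Accessible DNA was mapped by ATAC-seq, which reads out where a transposase can cut, in cells differentiated from mouse epiblast stem cells of the line 7H OTX2-dTAG-EGFP, on a BL6/129 hybrid background. In this line OTX2 carries a dTAG degron, so that the small molecule dTAG13 directs the protein to the proteasome. All cells were taken to definitive endoderm in 2 steps, both with Activin A (40 ng/ml, then 100 ng/ml). The first, of 16 h, also had 3 uM CHIR, which activates Wnt signalling, and the other, of 24 h, had 100 nM LDN, which inhibits BMP receptors. The 3 dTAG13 libraries come from cells given dTAG13 for 24 h from the primitive streak stage, the 3 DMSO libraries from cells given the vehicle alone, and each library holds 50000 live, DAPI-sorted cells. Both groups carry the tagged OTX2 and come from a single line, and there is no untagged control among the 6 libraries. The series' design calls the replicates technical, so every standard error and p-value here covers the spread between such libraries and not between independent differentiations.

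Gm symbols are provisional names given to predicted mouse gene models that have no functional name yet. The group therefore mixes long noncoding RNAs, pseudogenes, small RNAs and a few open reading frames, many of them close to, or inside, better known genes. OTX2 is a homeodomain factor of the anterior epiblast, anterior endoderm and brain, and proteins of its family bind a core written GGATTA, or TAATCC on the other strand.

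The first sequences below are peaks that lost accessibility in dTAG13 and contain that core, shown because it was more frequent among the lower Gm promoter peaks than among those not called, as counted further on. They are given 5′ to 3′ on the plus strand of mm10, with GGATTA or TAATCC in capitals. Gm11460 lies at chr2:165667293-165667404, Gm26773 at chr14:118108663-118108819, Gm44120 at chr6:129522538-129522742, Gm13583 at chr2:60551790-60551984 and Gm10653 at chr9:62860965-62861219. Gm43689 lies at chr3:137917778-137917948, Gm43779 at chr5:54997307-54997436 and Gm25917 at chr12:56252836-56253035.
Gm11460: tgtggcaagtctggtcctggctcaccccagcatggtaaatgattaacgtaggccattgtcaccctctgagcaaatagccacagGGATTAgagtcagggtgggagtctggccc
Gm26773: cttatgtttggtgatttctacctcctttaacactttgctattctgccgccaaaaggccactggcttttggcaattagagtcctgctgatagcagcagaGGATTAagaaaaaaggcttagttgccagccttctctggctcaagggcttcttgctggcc
Gm44120: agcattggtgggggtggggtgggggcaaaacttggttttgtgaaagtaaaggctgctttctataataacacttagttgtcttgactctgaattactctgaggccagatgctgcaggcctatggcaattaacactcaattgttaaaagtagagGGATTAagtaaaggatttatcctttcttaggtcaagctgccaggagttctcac
Gm13583: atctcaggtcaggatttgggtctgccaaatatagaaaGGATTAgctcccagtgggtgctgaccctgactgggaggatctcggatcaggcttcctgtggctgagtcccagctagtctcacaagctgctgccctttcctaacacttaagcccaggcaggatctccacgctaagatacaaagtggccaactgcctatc
Gm10653: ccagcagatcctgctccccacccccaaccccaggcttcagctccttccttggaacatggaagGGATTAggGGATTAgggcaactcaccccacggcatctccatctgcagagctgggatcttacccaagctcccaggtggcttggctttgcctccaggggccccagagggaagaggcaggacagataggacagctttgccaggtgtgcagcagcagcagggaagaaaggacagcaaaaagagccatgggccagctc
Gm43689: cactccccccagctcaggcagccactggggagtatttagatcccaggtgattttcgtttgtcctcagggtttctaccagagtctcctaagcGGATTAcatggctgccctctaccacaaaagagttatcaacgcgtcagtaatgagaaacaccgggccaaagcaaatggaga
Gm43779: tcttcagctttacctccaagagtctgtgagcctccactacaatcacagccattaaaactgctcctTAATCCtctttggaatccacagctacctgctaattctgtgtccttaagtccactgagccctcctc
Gm25917: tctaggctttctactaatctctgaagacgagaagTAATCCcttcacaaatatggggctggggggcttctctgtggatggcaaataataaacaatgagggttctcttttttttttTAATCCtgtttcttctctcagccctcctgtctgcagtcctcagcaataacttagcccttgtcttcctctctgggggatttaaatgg

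Gm19426 (chr2:84742578-84742841) and Gm22132 (chr1:136756592-136756789) are shown as Gm promoter peaks that gained accessibility. Neither contains the core, so nothing is in capitals.
Gm19426: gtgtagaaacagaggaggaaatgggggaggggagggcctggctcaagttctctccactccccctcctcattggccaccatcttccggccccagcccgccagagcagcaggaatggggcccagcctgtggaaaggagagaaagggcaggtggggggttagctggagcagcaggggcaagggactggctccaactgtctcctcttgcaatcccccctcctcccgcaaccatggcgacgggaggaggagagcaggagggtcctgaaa
Gm22132: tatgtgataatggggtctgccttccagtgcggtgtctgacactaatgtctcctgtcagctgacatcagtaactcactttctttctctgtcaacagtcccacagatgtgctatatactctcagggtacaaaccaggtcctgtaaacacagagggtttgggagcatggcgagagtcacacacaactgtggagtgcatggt

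The middle 120 bases of the peaks of Gm10800 (chr2:98666720-98666839) and Gm10801 (chr2:98662542-98662661) are shown because these peaks have the smallest p-values of the whole table. They were picked out after their values were seen.
Gm10800: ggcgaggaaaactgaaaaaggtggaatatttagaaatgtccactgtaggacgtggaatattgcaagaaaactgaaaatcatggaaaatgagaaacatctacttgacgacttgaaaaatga
Gm10801: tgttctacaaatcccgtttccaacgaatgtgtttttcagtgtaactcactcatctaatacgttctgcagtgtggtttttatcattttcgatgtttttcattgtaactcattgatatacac

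Values called deposited below are those of the authors' deposited table: the mean normalized count over all 6 libraries, the log2 fold change of dTAG13 over DMSO with its standard error (SE), and the adjusted p-value over all peaks. Library values were not analysed here. The level of each group was computed from the deposited mean and fold change on the assumption that all libraries weigh the same, and is called the implied level. A peak is called lower or higher in dTAG13 where the deposited adjusted p is under 0.05. Coordinates are those of mm10.

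Gm promoter peaks were weak as a group. Their deposited mean normalized count had a median of 7.77, with quartiles of 4.45 and 15.05, where the other promoter peaks had a median of 16.6. A mean count under 5 was found at 30.9% of them and at 9.69% of the other promoter peaks. They were also shorter, with a median of 129 bases against 190, and poorer in GC, with a median of 56.1% against 65.1%. The observed over expected frequency of CpG, which is near 1 in CpG islands and low elsewhere, had a median of 0.363 at Gm promoter peaks, 0.751 at other promoter peaks and 0.251 over all peaks. In length and mean count Gm promoter peaks were thus nearer to the table as a whole, with medians of 131 bases and 7.33 counts, than to other promoters. This profile was not particular to Gm genes. The 129 promoter peaks with Mir symbols, of microRNA genes, had medians of 9.56 counts, 139 bases, 58.0% GC and 0.333 for CpG. For the 917 of RIKEN clone genes, with symbols ending in Rik, the medians were 11.6 counts, 155 bases, 62.1% and 0.689. No test was made of these differences.

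Of the 1611 Gm promoter peaks, 1577 have a deposited adjusted p, and 62 of these, or 3.93%, changed. The 34 without one are counted among the 1549 not called. The background over all peaks was 5.26%. Accessibility fell at 38 peaks (2.41%, background 3.79%) and rose at 24 (1.52%, background 1.47%), and so the share that rose was near the background and the share that fell was below it. Among other promoter peaks 0.891% fell and 1.12% rose. The remaining 16210 peaks assigned to Gm genes, which lie farther from a start, had 5.48% lower and 1.78% higher. The median deposited log2 fold change was -0.07 at Gm promoter peaks, 0.04 at other promoter peaks and -0.18 over all peaks.

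The balance of directions depended on where 0 was set. As deposited, 61.3% of the 62 calls were lower in dTAG13. With the median of all peaks set to 0, the calls were 32 lower and 53 higher, with the median of all promoter peaks set to 0 they were 43 lower and 23 higher, and with the median of peaks found in both groups' peak lists set to 0 they were 49 lower and 22 higher. Centring within GC deciles gave 26 lower and 66 higher. Across these 4 settings 23 of the 38 lower calls and 22 of the 24 higher calls remained. All 38 lower peaks and 18 of the 24 higher peaks pass an absolute log2 fold change of 1 and stand in the authors' deposited lists of enriched peaks. Those lists carry the values of the same test and are no separate support.

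**Figure D1:**
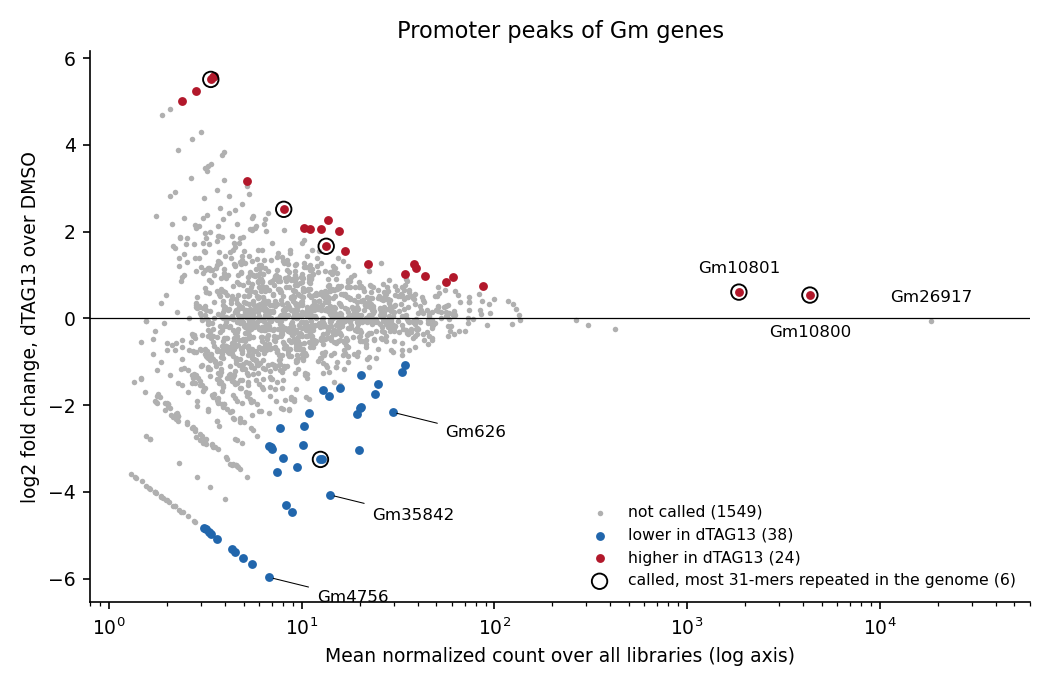
Deposited log2 fold change (dTAG13 over DMSO) against the deposited mean normalized count over all libraries (log axis) for the 1611 Gm promoter peaks. Blue and red points are the 38 lower and 24 higher calls, grey points the 1549 peaks not called, and rings mark the 6 called peaks made mostly of repeated sequence. Gm10800 and Gm10801 stand far to the right of all other called peaks, and the strings of points at the lower left are peaks whose implied dTAG13 level is near 0.

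Among the lower peaks, the DMSO level ran from 6.02 to 48.5 with a median of 17.4 implied normalized counts, and the dTAG13 level from 0.208 to 22.1 with a median of 1.95. The smallest p among the lower peaks was at Gm626 (chr14:33471388-33471756), 124 bases from the start of Frmpd2, a FERM and PDZ domain gene. The symbol Gm626 was not matched in the GENCODE annotation, so it has no start of its own here. This peak therefore cannot be told apart from the promoter of Frmpd2. The implied level of the peak was 48.5 in DMSO and 10.8 in dTAG13. The deposited log2 fold change was -2.17 (SE 0.38), with an adjusted p of 2.15e-05, and the peak holds GGATTA within 100 bases of its midpoint. Gm626 was one of 5 lower peaks that appear in the peak lists of both groups, so it was reduced but still called as a peak in dTAG13.

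The long noncoding RNA gene Gm12410 (chr4:45713923-45714297) had an implied level of 35.4 in DMSO and 4.31 in dTAG13. Its deposited log2 fold change was -3.04 (SE 0.54, adjusted p 2.63e-05). The nearest named protein-coding start to Gm35842 (chr7:70549031-70549525) is that of Nr2f2, a nuclear receptor gene of mesoderm and veins, 182543 bases away. Gm35842 went from an implied 26.5 in DMSO to 1.57 in dTAG13, a deposited log2 fold change of -4.07 (SE 0.82, adjusted p 0.00024). At both genes the peak was found in the DMSO list only. The same held for the long noncoding RNA gene Gm42951 (chr5:23347282-23347673), with implied levels of 22.9 and 2.41 (deposited adjusted p 0.00188), and for Gm37685 (chr3:75952872-75953079), within Golim4, with 17.4 and 1.60 (deposited adjusted p 0.00685).

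Some of the lower peaks with the smallest p lay inside protein-coding genes. The antisense gene Gm16299 (chr19:53823884-53824177), within Rbm20, a splicing factor gene of muscle, had implied levels of 32.5 in DMSO and 7.72 in dTAG13 (deposited adjusted p 0.00146). Gm37644 (chr1:163309564-163309878), within Prrx1, a homeobox gene of mesenchyme, had implied levels of 32.8 and 7.97 (deposited adjusted p 0.00197). Gm11460 (printed above), a processed pseudogene within Eya2, a transcriptional coactivator gene, had an implied level of 10.8 in DMSO and was near 0 in dTAG13. Of the 38 lower peaks 34.2% had their midpoint in the body of another protein-coding gene, close to the 35.2% of the peaks not called.

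Gm27528 and Gm14055 lay outside the bodies of other protein-coding genes. Noncoding neighbours are not listed here. Gm27528 (chr12:109533417-109533733) is a TEC model (a GENCODE class awaiting experimental evidence). The nearest named protein-coding start to it is that of Rtl1, an imprinted gene derived from a retrotransposon, 66755 bases away. Its implied levels were 31.8 in DMSO and 6.90 in dTAG13 (deposited log2 fold change -2.20, SE 0.50). For Gm14055 (chr2:137288199-137288555) the nearest such start is that of Jag1, a Notch ligand gene, 171733 bases away. Gm14055 had implied levels of 37.1 and 11.1 (deposited log2 fold change -1.74, SE 0.41). Gm44772 (chr7:107624389-107624671), within Ppfibp2 and 631 bases from the start of 5330417H12Rik, had implied levels of 36.8 and 12.8 (deposited log2 fold change -1.52, SE 0.38). These last levels show a partial loss: Gm14055 and Gm44772 are both in the peak lists of both groups.

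At 10 of the 38 lower peaks the implied dTAG13 level was between 0.208 and 0.213, which leaves the fitted fold change without a measured lower value. Set against a floor of 3 normalized counts per library, the DMSO level at these peaks was at least 2.01-fold to 4.45-fold higher. The top of that range was Gm4756 (chr12:72649877-72650147), with an implied DMSO level of 13.3, a deposited log2 fold change of -5.97 (SE 1.33) and an adjusted p of 0.00137. Gm11460 was at least 3.59-fold higher in DMSO and Gm26773 at least 3.23-fold higher. For Gm15294 the bound was 2.91 and for Gm15872, 82 bases from the start of Traf3ip3, it was 2.84. In all, 23 lower peaks had an implied dTAG13 level under 3, so that their fitted fold changes, those of Gm35842, Gm42774, Gm42951, Gm37685 and Gm44120 included, rest on few reads in dTAG13. At the 15 lower peaks with both groups at 3 or more, the deposited log2 fold change ran from -3.04 to -1.07.

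Among the 24 higher peaks the implied DMSO level had a median of 6.32 and the dTAG13 level a median of 23.8. The small nucleolar RNA gene Gm25546 (chr15:94681302-94681567), within Tmem117, had implied levels of 6.19 in DMSO and 24.95 in dTAG13 (deposited log2 fold change 2.01, SE 0.48, adjusted p 0.00359). Gm22132 (printed above), a microRNA gene, had implied levels of 4.74 and 22.6, and its peak was found in the dTAG13 list only (deposited log2 fold change 2.25, SE 0.55). Gm1720 (chrX:166661906-166662097) had implied levels of 4.85 and 20.3, and Gm16008 (chr4:156030699-156030881), 2422 bases from Tnfrsf18, of 4.30 and 17.9. These 4 genes had low but measured levels in DMSO and a 4-fold or larger increase in the fitted value.

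A second set of higher peaks was strongly open in both groups and changed less. Gm26753 (chr17:21488812-21489241), 28 bases from the start of Zfp53, a zinc finger gene, had implied levels of 65.2 in DMSO and 109 in dTAG13 (deposited log2 fold change 0.74, SE 0.19, adjusted p 0.00776). Gm10010 (chr6:128200514-128200841) had implied levels of 41.6 and 80.1, and Gm36967 (chr2:136679823-136680188) of 40.6 and 72.2. Gm37805 (chr9:95407232-95407524), 656 bases from the start of Chst2, a sulfotransferase gene, had implied levels of 24.2 and 54.3. All 4 were in the peak lists of both groups.

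Gm19426 is the one gene with more than one higher peak. Its peak at chr2:84742578-84742841 had implied levels of 22.5 in DMSO and 53.7 in dTAG13 (deposited log2 fold change 1.25, SE 0.30, adjusted p 0.00385), and that at chr2:84743728-84743945 had 29.4 and 57.4 (0.96, SE 0.27, adjusted p 0.0142). Its remaining peak, with a deposited mean count of 6.62, had a deposited log2 fold change of 0.18 (SE 0.74, adjusted p 0.921). Gm11827 has 2 lower peaks, at chr4:11122669-11122764 and chr4:11122920-11123090, with deposited adjusted p of 0.0246 and 0.0482. Neighbouring peaks of a gene share their surroundings and are not independent.

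At 5 higher peaks the implied DMSO level was 0.143 to 0.145, and against the floor of 3 counts the dTAG13 level was at least 1.54-fold to 2.30-fold higher. The upper bound belongs to Gm9484 (chr5:96997192-96997252), 467 bases from the start of Bmp2k, a kinase gene, with an implied dTAG13 level of 6.89 and a deposited adjusted p of 0.0111. Gm15735, within Tmtc4, followed with a bound of 2.26. Gm18326, Gm15131 and Gm29611 make up the rest. At the edge of the threshold, Gm10837 (0.0465), Gm11827 (0.0482) and Gm17105 (0.0491) were the last inside by deposited adjusted p, and Gm37783 (0.0502), Gm44207 (0.0521) and Gm44785 (0.0521) the first outside.

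**Figure D2:**
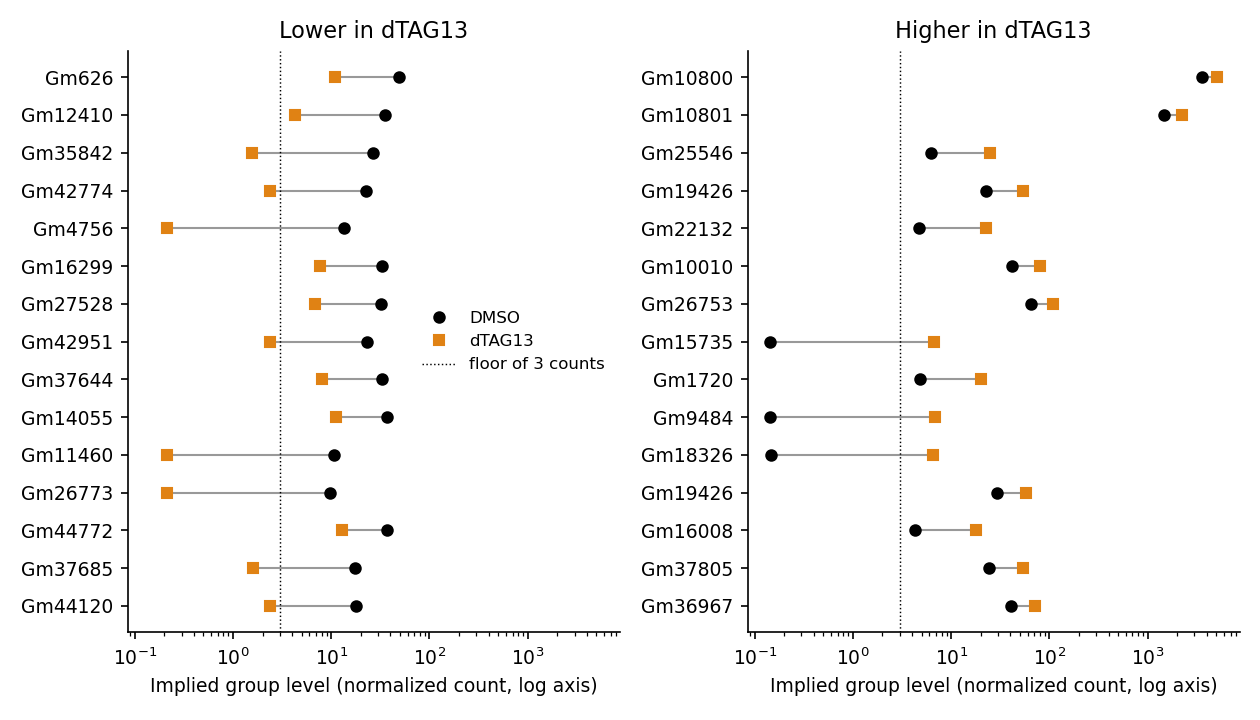
Implied level in DMSO (black circles) and dTAG13 (orange squares), in normalized counts on a log axis, for the 15 lower and 15 higher Gm promoter peaks with the smallest p. The dotted line is the floor of 3 counts; Gm19426 appears with both of its higher peaks. Gm10800 and Gm10801 lie above 1000 counts in both groups, and 8 of the 15 lower peaks lie below the floor in dTAG13, with Gm4756, Gm11460 and Gm26773 farthest below it.

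Each peak was also looked up in the deposited peak lists of the pooled libraries of each group. Of the Gm promoter peaks 53.8% overlapped a peak of both groups, 35.1% of DMSO only and 11.2% of dTAG13 only. Other promoter peaks were shared more often, at 72.3%, and all peaks less often, at 48.2%. Among peaks of like mean count the order was the other way below 10 counts and the shares were closer above: under 5 counts 14.7% of Gm promoter peaks and 5.00% of other promoter peaks were in both lists, from 5 to 10 counts 45.6% and 33.4%, and from 10 to 20 counts 82.9% and 85.1%. Of the lower peaks 33 of 38 (86.8%) were in the DMSO list only, near the 86.9% of all lower peaks of the table. Of the higher peaks 11 of 24 (45.8%) were in the dTAG13 list only, against 57.5% of all higher peaks and 25.1% of the higher ones at other promoters. The lists hold 65089 peaks for DMSO and 44391 for dTAG13, and a peak missing from the dTAG13 list need not be closed there.

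The share of calls was also set beside that of other promoters at like mean counts. Among peaks with a mean count of 10 to 20, 3.18% of Gm promoter peaks (11 peaks) and 0.957% of other promoter peaks were lower. From 20 to 40 the shares were 3.96% (8 peaks) and 0.615%, and from 5 to 10 they were 2.32% (11 peaks) and 1.21%. Over all peaks of any count 3.79% were lower, and over the Mir promoter peaks 3.91% (5 peaks). Mean counts were not matched in these last shares. Under 5 counts the order was the other way, at 1.73% and 2.17%. At 40 counts or more, 0 of the 92 Gm promoter peaks were lower by DESeq2's deposited adjusted p (3 at an unadjusted p under 0.05). Of the other promoter peaks at that count, 0.136% were lower. Higher calls were 6.52% of the Gm promoter peaks and 2.70% of the others. The 6.52% are 6 peaks, among them Gm10800 and Gm10801, which are made mostly of repeated sequence.

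**Figure D3:**
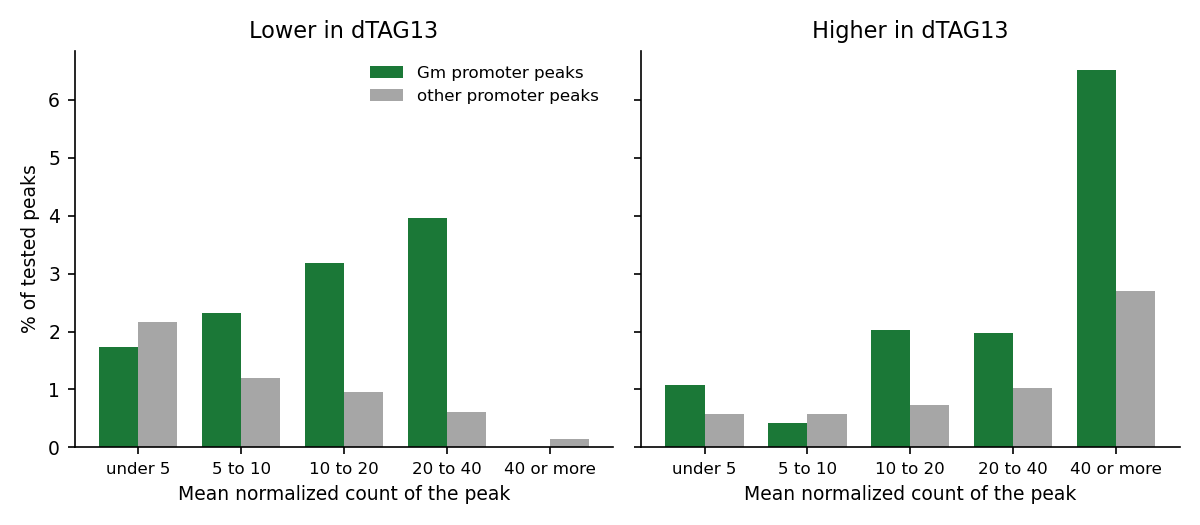
Share of tested peaks called lower (left) or higher (right) in dTAG13, in percent, by the peak's deposited mean normalized count, for Gm promoter peaks (green) and other promoter peaks (grey). From 10 to 40 counts the green bars for lower calls are above the grey ones, at 3.18% against 0.957% and at 3.96% against 0.615%.

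By gene symbol, 1319 of the 1403 genes matched the GENCODE M21 annotation. Its long noncoding classes, of which lincRNA (322 peaks) and antisense (247 peaks) were the largest, made up 682 peaks, of which 17 were lower and 8 higher. Small RNA genes accounted for 260 peaks with 3 lower and 5 higher calls, and pseudogenes for 227 with 5 lower and 1 higher. The class TEC had 175 peaks with 8 lower and 4 higher, 4.65% and 2.33% of those tested. Gene models annotated as protein coding had 168 peaks with 3 lower and 4 higher, 1.84% and 2.45% of those tested. Over all peaks the shares were 3.79% and 1.47%. The 4 higher peaks are those of Gm10800 and Gm10801, made mostly of repeated sequence, and 2 of Gm19426, a long noncoding RNA gene in RefSeq. Of the 3 lower ones, Gm4756 and Gm15294 are pseudogenes in RefSeq. For lincRNA genes the shares were 4.09% lower and 1.89% higher, and for antisense genes 1.62% and 0.405%. The 64 microRNA promoters, 59 of them tested, had 0 lower and 3 higher calls by DESeq2's deposited adjusted p. The higher share was 5.08% of those tested, against 1.47% over all peaks. Of the 64, 4 were lower at an unadjusted p under 0.05. The 3 higher peaks are those of Gm22132, Gm23659 and Gm24096, and the peaks of Gm23659 and Gm24096 are made mostly of repeated sequence. Between classes with so few calls no test was made.

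**Figure D4:**
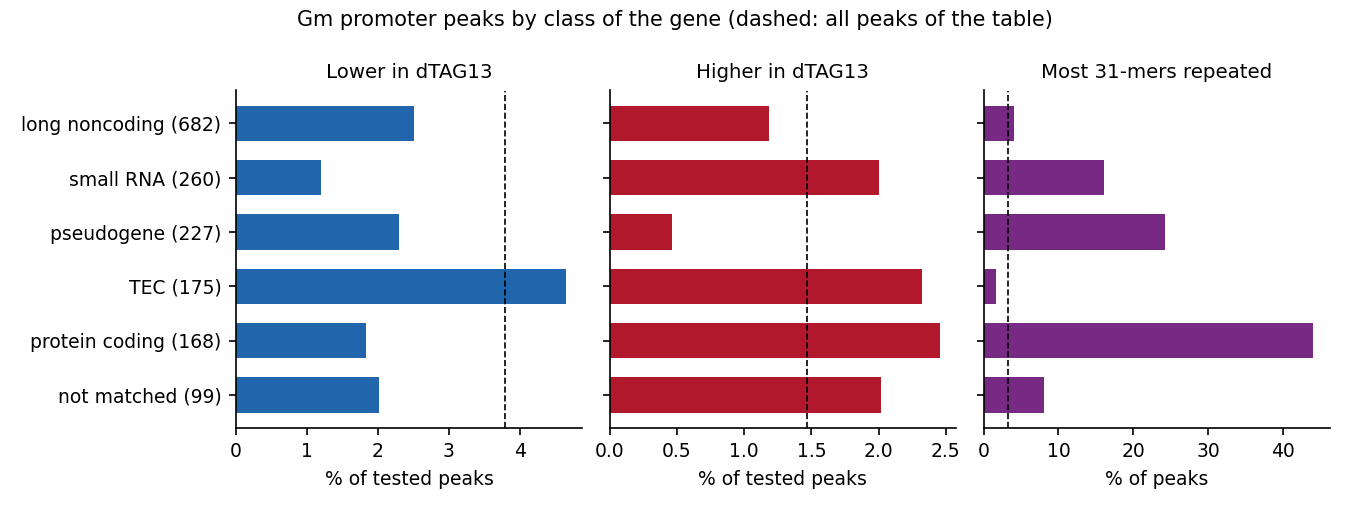
Gm promoter peaks by the GENCODE class of their gene, with the number of peaks in brackets: share of tested peaks lower (left) and higher (middle) in dTAG13, and share of peaks with most of their 31-base words repeated in the genome (right), all in percent. The dashed lines give all peaks of the table. The protein-coding class stands out in the right panel at 44.1%. The TEC class has the highest share of lower calls, 4.65% (8 peaks), near the 3.79% of all peaks.

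Some Gm promoter peaks also lay at the promoter of another gene, a share that was not set beside that of other promoter peaks. Within 1000 bases of the midpoint, 27.4% had the annotated start of a gene with another symbol, and 320 peaks had that of a protein-coding gene with another symbol. Of these, in 232 it was on the opposite strand from the Gm gene, in either orientation. In 51 it was on the same strand, and 37 belonged to Gm genes with no matched strand. For the 99 peaks whose Gm symbol was not matched, whether such a start is the gene's own under another name was not tested. The 232 peaks with an opposite-strand start had a median GC of 64.9% and 63.4% were in the lists of both groups, where the 1291 peaks with no start of another protein-coding gene nearby had 54.7% and 50.6%. The opposite-strand peaks held 4 lower and 3 higher calls (1.74% and 1.30%), those on the same strand 0 of either by DESeq2's deposited adjusted p (7 at an unadjusted p under 0.05), and the peaks with no such start nearby 33 and 21 (2.62% and 1.67%). These last were 87.1% of the 62 calls and 80.1% of all Gm promoter peaks.

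The core GGATTA, searched on both strands within 100 bases of the midpoint, was found at 6.89% of Gm promoter peaks, 3.75% of other promoter peaks and 8.84% of all peaks. It was found at 15 of the 38 lower Gm promoter peaks (39.5%), 1 of the 24 higher ones (4.17%) and 95 of the 1549 not called (6.13%). The same letters read backwards, ATTAGG, were found at 6 of the lower (15.8%), 0 of the higher and 88 of those not called (5.68%). At the lower peaks the 95% Wilson intervals, for counting error only, were 25.6% to 55.3% for GGATTA and 7.44% to 30.4% for ATTAGG, which overlap. The words can share letters, as GGATTAGG in Gm10653 does, so ATTAGG is not an independent control. Among other promoter peaks GGATTA was found at 25.3% of the lower and 0.448% of the higher ones. In the printed lower peaks, which were chosen for a match in that window, the match nearest the midpoint was 3 bases away in Gm43779, 8 in Gm43689, 17 in Gm25917, 22 in Gm26773 and 30 in Gm11460. It was 52 bases away in Gm44120, 54 in Gm10653 and 57 in Gm13583. Gm10653 and Gm25917 each hold the core more than once, as the capitals in their sequences show. The lower peaks had a median GC of 50.8% and a median length of 232 bases, the peaks not called 56.3% and 127 bases. The part of base composition and length in these shares was not tested.

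**Figure D5:**
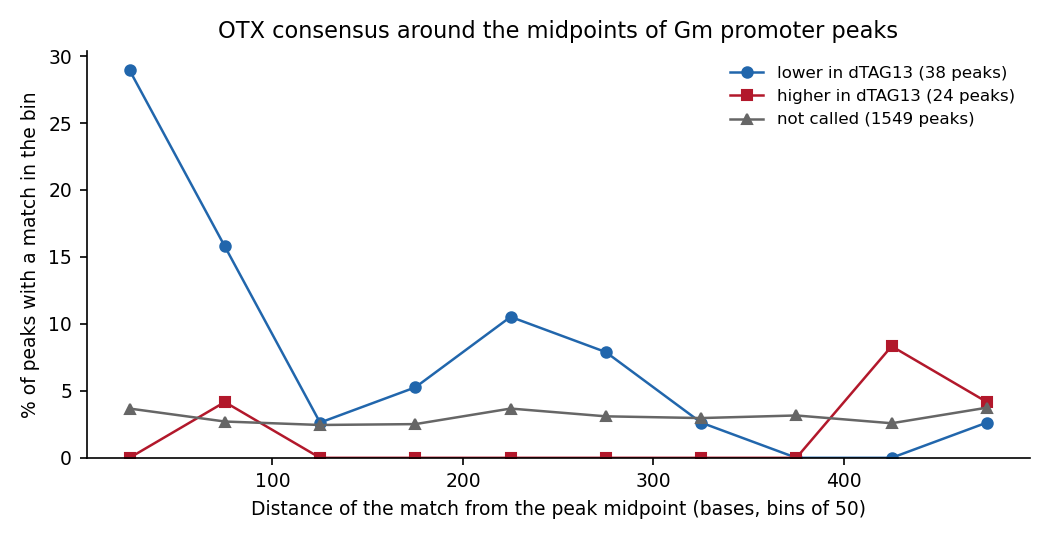
Share of Gm promoter peaks, in percent, with GGATTA on either strand, by the distance of the match from the peak midpoint in bins of 50 bases, for lower (blue), higher (red) and not called (grey) peaks. In the bin nearest the midpoint the lower peaks are at 28.9% and those not called at 3.68%; beyond 300 bases the blue and grey lines lie close together.

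Other short words were counted in the same way, with no test. ACAAAG, the core bound by SOX factors, was found at 28.9% of the lower, 8.33% of the higher and 13.8% of the Gm promoter peaks not called. At other promoter peaks it was found at 8.38% of all and 19.7% of the lower ones. AGATAA, bound by GATA factors, was found at 28.9%, 12.5% and 10.3% of the same Gm promoter peaks, at 4.33% of other promoter peaks and at 25.8% of the lower ones among those. GGAATG, bound by TEAD factors, was found at 2 of the 38 lower (5.26%), 4 of the 24 higher (16.7%) and 11.4% of the Gm promoter peaks not called, with 95% Wilson intervals, for counting error only, of 1.46% to 17.3%, 6.68% to 35.9% and 9.94% to 13.1%, which overlap. All were searched on both strands in the same window. Over all peaks ACAAAG was found at 16.4%, AGATAA at 15.7% and GGAATG at 11.6%. A match is a string of letters and does not show that a factor was bound.

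Among all Gm promoter peaks, 111 hold GGATTA and 95 of those did not pass the test. Of the lower peaks with the core, Gm13583 (within Pla2r1) had implied levels of 15.7 in DMSO and 0.793 in dTAG13, and Gm43689, 643 bases from the start of Lamtor3, had 13.7 and 1.18. Gm10653, within Calml4, had 14.5 and 1.55, and Gm44443, within Dennd1a, had 17.3 and 3.12. Gm44120 had 17.9 and 2.36, and the small nucleolar RNA gene Gm25917 had 12.3 and 1.58. Centring within GC deciles removed the calls of Gm44120, Gm44443, Gm43779, Gm25917 and both peaks of Gm11827. The single higher peak with the core was Gm28178 (chr1:52580650-52580789), with implied levels of 1.05 and 9.36 (deposited adjusted p 0.0460), a call lost when peaks of both lists were set to 0.

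Repeated sequence was common at these promoters. Each peak was cut into all its words of 31 bases, and a peak was counted as repeated where more than 50% of its words occur more than once in the assembled mouse chromosomes. This held for 210 Gm promoter peaks (13.0%), 1.004% of other promoter peaks and 3.26% of all peaks. Reads from such sequence may fit more than one place, and how the authors treated them is not given in the sources used here. Repeated peaks made up 44.1% of the protein-coding models, 24.2% of the pseudogenes and 16.2% of the small RNA genes. Of the 95 Gm promoter peaks on chromosome 14, 43 were repeated, and of the 86 on chromosome 9, 21. The 6 repeated peaks among the 62 calls were Gm42774 (lower) and Gm10800, Gm10801, Gm18326, Gm23659 and Gm24096 (higher). Without repeated peaks there were 37 lower and 19 higher calls.

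The strongest Gm promoter peak was the strongest of the whole table. Gm26917 (chr17:39843034-39847318) is 4285 bases long and overlaps Rn18s-rs5, an 18S ribosomal RNA related sequence in RefSeq. Its implied level was 18753 in DMSO and 18053 in dTAG13, a deposited log2 fold change of -0.05 (SE 0.02, adjusted p 0.177). Gm10800 (chr2:98666244-98667314) ranked 3 by mean count, with implied levels of 3541 and 5132 and a deposited log2 fold change of 0.54 (SE 0.06, adjusted p 2.48e-16). Gm10801 (chr2:98662237-98662966) ranked 5, with 1474 and 2239 and a deposited log2 fold change of 0.60 (SE 0.07, adjusted p 2.58e-15). These 3 peaks hold 52.9% of the summed mean counts of all Gm promoter peaks. Next came the microRNA gene Gm23935 (chr16:11143908-11144312), with implied levels of 456 and 386 (deposited adjusted p 0.145) and 93.6% repeated words, and Gm15564 (chr16:35981595-35981820), with 321 and 290.4 (deposited adjusted p 0.515).

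Soft-masked repeat letters covered 81.2% of the Gm10800 peak and 67.7% of the Gm10801 peak. Shifted against itself, the Gm10800 peak matched best at an offset of 234 bases, with 53.4% identical letters against a median of 28.5% over offsets. A unit of 234 bases is that of the mouse major satellite, the tandem repeat of the regions next to the centromeres. The Gm10801 peak matched itself best at 120 bases (43.6%, median 28.8%). Of the distinct 31-base words of Gm10800, 25.8% also occur in Gm10801. Another peak of this locus, placed at Gm10800 but farther from its start (chr2:98665047-98665216), had a deposited log2 fold change of 0.65 (SE 0.10, adjusted p 3.38e-07), in the same direction. The log2 fold changes of Gm10800 and Gm10801 are the lowest among the 24 higher calls, and their mean counts are the highest.

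There were 20 genes with 3 or more peaks, 70 peaks in all, of which 2, both of Gm19426, were called. Of these peaks 34 were repeated, and they belonged to 10 of the genes, while the other 10 genes had no repeated peak. Gm10717 (chromosome 9) had 8 peaks with deposited mean counts from 1.46 to 99.8, every one with more than 50% repeated words, and log2 fold changes from -1.41 to 1.09 with no adjusted p under 0.154. Gm10722, on the same chromosome, had 4 peaks with an adjusted p of 0.489 or more. On chromosome 14, Gm21738, Gm3667 and Gm2974 had 4 peaks each, with repeated shares reaching 100% and no adjusted p under 0.223. Gm13142 had 4 peaks (adjusted p 0.435 or more), Gm5112 had 3 unrepeated peaks with mean counts up to 118 (adjusted p 0.0807 or more) and Gm37494 had 3 with mean counts from 44.7 to 55.1 (adjusted p 0.0750 or more).

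A further set matched the mitochondrial genome. At 8 Gm promoter peaks more than 50% of the 31-base words also occur in mitochondrial DNA, out of 11 such peaks outside the mitochondrial sequence in the whole table and 0 among other promoter peaks. On chromosome 1 they are Gm10222 (chr1:24611561-24612716), Gm28438 (chr1:24612796-24613074) and Gm10925 (chr1:24613157-24616152), which follow each other and match in 100% of their words. Gm13340 and Gm13341 on chromosome 2 matched in 68.7% and, for its longer peak, 75.4%. Their deposited mean counts were 26.96 at Gm10222, 16.96 at Gm28438 and 13.9 at Gm13340. The deposited log2 fold change at Gm10222 was -0.07 (SE 0.36, adjusted p 0.940), and of the 8 peaks 0 had an adjusted p or an unadjusted p under 0.05 in the authors' deposited table.

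The authors' deposited table also marks peaks of genes headed down or up. None of the 17821 peaks assigned to Gm genes, in any location, carries either mark, while 2019 and 2120 peaks of the table do. Whether Gm genes were left out of the lists or did not change is not given in the sources used here, so accessibility at these promoters could not be set beside expression.

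As a check of the labelled cell type, all 15 definitive endoderm marker genes, Sox17, Foxa2 and Cxcr4 among them, had a promoter peak, with a median strongest mean count of 39.1. Promoter peaks were also present for 5 of 6 mesoderm, 4 of 4 neural, 4 of 5 pluripotent epiblast and 3 of 4 extraembryonic endoderm markers, with medians of 9.97, 16.4, 18.5 and 9.84. Mesp1, Nanog and Ttr had none. The part of other cell types in the Gm promoter signal was not tested.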

How the data were processed

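ATAC-seq of 3 DMSO and 3 dTAG13 libraries was analysed from the authors' files. The submitters' processing notes name fastp, Bowtie2, MACS2, featureCounts, HOMER 4.11, ChIPseeker and mm10, with no role or parameter. Per the file headers, the authors' deposited table has the form of DESeq2 output: for each peak a mean normalized count (a signal divided by size factors), a log2 fold change with its standard error, a Wald statistic (a score) and a p-value with its Benjamini-Hochberg adjusted p-value. A fit of library counts, leaving out libraries and the depth per library were not analysed here. The deposited adjusted p was recomputed from the p-values, with a largest difference of 7.87e-06.

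Members were counted at an adjusted p under 0.05. Alternatives set other zero points with the deposited standard errors. Peaks were joined to GENCODE M21 and GRCm38.p6 (the assembly of mm10) in Python 3.11.15 with pandas 2.3.3 and numba 0.67.0, and the joins and adjustment were tested on simulated data. Named were the 15 calls with the smallest p in each direction, the 5 strongest peaks, the 5 largest fold changes each way, the first 3 outside the threshold, genes with 3 or more peaks, and calls with GGATTA; other names were chosen after their values were seen. Members and lists were chosen with earlier results of these data known.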

Additional observations from a re-analysis of the deposited data

How the results depend on the processing

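With peaks of a mean count under 10 left out, there were 41 calls, 22 of them lower; the median log2 fold change became 0.0652, above 0, and the share in both lists 90.2%. At an adjusted p under 0.1 there were 127 calls, 73 lower and 54 higher. Higher calls numbered 53 with the median of all peaks set to 0 and 66 with centring by GC. Centring by GC or on peaks of both lists, and leaving out repeated peaks, were chosen after seeing the data. The share in both lists was 47.0% where 50% of both peaks had to overlap and 51.1% without repeated peaks. Another start lay within 500 bases at 18.6% and within 2000 bases at 36.4%, and GGATTA lay within 50 bases at 4.03%. Some calls rest on few reads in the less open group: 12 lower and 5 higher calls had an implied level under 1 there.

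No paired analysis was possible because the table gives 1 fold change per peak and no library columns; for the same reason edgeR and leaving out each replicate were not run.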

Other observations

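The following lower Gm promoter peaks fall outside the naming rule and were picked by hand, after their values were seen, for the named gene nearest to them; no list of such genes was tested. Gm27275 (chr17:85617132-85617324) has its midpoint within the annotated body of Six3, a homeobox gene of the forebrain and eye, 3606 bases from its nearest start. Its implied levels were 23.8 in DMSO and 7.83 in dTAG13 (deposited adjusted p 0.0399). Gm10837 (chr14:122490765-122490989), 12777 bases from Zic2, a zinc finger gene of the forebrain, had 19.6 and 6.24 (0.0465). Both calls were lost with the median of all peaks set to 0.

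Gm37737, 33359 bases from the Wnt receptor gene Fzd7, and Gm29455, 92404 bases from the activin subunit gene Inhbb, were near 0 in dTAG13, with DMSO levels at least 2.01-fold and 2.35-fold higher. The median distance to the nearest named protein-coding start was 31287 bases for lower, 45856 for higher and 14392 for Gm promoter peaks not called.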
